A study of Mus musculus with 23 samples.

Results

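The genes described here are the developmental transcription factor genes of the families Pax, Sox, Tbx, Lhx, Dlx, Msx, Irx, Zic, En, Meox and Nkx, with the sine oculis homeobox genes (Six2, Six3, Six4, Six5 and Six6), on a mouse expression array. They were taken by symbol, as the family name followed by a number, without Tbx21, and each gene was read from the probe set with the highest mean log2 intensity among those naming that gene alone. This gave 82 of the 12393 genes measured, in 12 families: 17 Sox, 11 Nkx, 10 Tbx, 8 Lhx, 8 Pax, 6 Dlx, 6 Irx, 5 sine oculis, 4 Zic, 3 Msx, 2 En and 2 Meox genes. The rule reads gene symbols and no measured value.

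The study asked whether Snf5 (gene Smarcb1), which belongs to the core of the nucleosome remodeller SWI/SNF, and Ezh2, the histone methyltransferase of Polycomb repressive complex 2 (PRC2), oppose each other in gene control. It holds 3 arrays of Snf5 Ezh2-deficient and 3 of Ezh2-deficient MEFs (mouse embryonic fibroblasts, taken at E13.5), each beside 3 wild-type MEF arrays. It also holds 5 arrays of CD8+ T cells purified out of lymphomas that lack Snf5 beside 6 of wild-type CD8+ T cells, from mice aged 10 to 15 weeks. The alleles were inactivated conditionally in the MEFs; what drove recombination, when, and in which strain, the sources used here do not say; no MEFs lacking Snf5 alone were analysed here. The 3 wild-type MEF arrays of the second set repeat the first set's hybridisations, summarised again, so the MEF data hold 9 distinct arrays and both mutant lines share their controls.

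Polycomb complexes are known for holding developmental transcription factor genes silent outside the tissue in which each acts, through methylation of lysine 27 on histone H3, while SWI/SNF moves nucleosomes and can open such genes. Pax and the homeobox families (Lhx, Dlx, Msx, Irx, En, Meox, Nkx and the sine oculis genes), the HMG-box Sox family, the T-box Tbx family and the zinc finger Zic family set regional identity in somites, limbs, neural tube and face. Embryonic fibroblasts are mesenchymal and are known to keep some of this positional expression; mature T cells use few of these genes.

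Promoters of 4 members are shown because these genes carry the main contrasts below: Sox12, Six5 and Lhx2 rose in both Snf5 Ezh2-deficient MEFs and Snf5-deficient lymphomas, and Zic1 was the single member that fell in Snf5 Ezh2-deficient MEFs. Each is the 250 bases before the gene's annotated start, 5′ to 3′ on the gene's strand, from RefSeq on GRCm38.p6, with every CG dinucleotide in capitals.
Sox12, chr2:152398047-152398296, minus strand: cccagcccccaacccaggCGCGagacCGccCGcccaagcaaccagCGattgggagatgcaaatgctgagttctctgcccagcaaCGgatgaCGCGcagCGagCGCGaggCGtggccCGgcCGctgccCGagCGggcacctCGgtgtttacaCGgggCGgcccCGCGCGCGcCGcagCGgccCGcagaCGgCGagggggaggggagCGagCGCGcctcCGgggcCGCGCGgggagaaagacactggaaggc
Six5, chr7:19094294-19094543, plus strand: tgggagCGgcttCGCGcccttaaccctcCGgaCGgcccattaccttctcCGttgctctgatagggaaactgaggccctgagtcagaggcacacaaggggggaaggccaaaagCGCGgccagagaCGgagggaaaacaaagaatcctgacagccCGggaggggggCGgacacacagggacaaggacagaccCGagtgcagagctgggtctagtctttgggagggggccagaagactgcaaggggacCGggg
Lhx2, chr2:38339031-38339280, plus strand: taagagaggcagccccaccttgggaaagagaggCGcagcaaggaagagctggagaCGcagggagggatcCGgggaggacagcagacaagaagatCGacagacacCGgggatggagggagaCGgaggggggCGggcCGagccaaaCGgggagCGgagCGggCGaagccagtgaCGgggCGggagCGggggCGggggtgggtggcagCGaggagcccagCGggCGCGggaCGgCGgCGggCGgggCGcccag
Zic1, chr9:91365769-91366018, minus strand: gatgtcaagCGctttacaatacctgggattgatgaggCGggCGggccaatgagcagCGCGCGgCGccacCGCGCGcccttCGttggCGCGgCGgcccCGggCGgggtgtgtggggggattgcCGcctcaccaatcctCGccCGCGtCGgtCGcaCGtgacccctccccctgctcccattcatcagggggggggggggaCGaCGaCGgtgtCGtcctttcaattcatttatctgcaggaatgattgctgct
The Sox12 sequence holds 35 CG dinucleotides, that of Zic1 27, that of Lhx2 25 (the first of 2 annotated starts) and that of Six5 13. RefSeq promoters of 300 bases were at hand for 58 of the 82 members, with a median of 18.5 CG dinucleotides, against 18 over 9883 genes of the array; the 13 members with a promoter among those that rose in Snf5 Ezh2-deficient MEFs had a median of 17.0. Searched on both strands, the homeodomain core TAATTA was in 3 of the 58 member promoters (5.17%, against 3.13% of all), the Sox core ACAATG in 4 (6.90%, against 8.34%), TATAAA in 5 (8.62%, against 10.1%) and the T-box core GGTGTGA in 0, against 3.49% of all. These are letter matches in a short window and no measure of binding.

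The targeted genes matched the labels: log2 intensity of Ezh2 was 5.63 to 5.81 in Ezh2-deficient MEFs against 7.81 to 7.95 in their wild-type MEFs, and 6.10 to 6.65 in Snf5 Ezh2-deficient MEFs against 8.02 to 8.07. Smarcb1 was at 6.56 to 6.83 in Snf5 Ezh2-deficient MEFs against 9.08 to 9.25, and at 5.64 to 8.67 in lymphomas against 10.4 to 11.5 in wild-type CD8+ T cells. The lymphomas were uneven in Smarcb1, at 8.30, 8.49, 5.81, 5.64 and 8.67 in order of replicate number. The part of this unevenness in the lymphoma results was not tested. Over the arrays, the mean log2 intensity of 12 fibroblast markers lay between 10.9 and 11.5 in all MEF groups, where Cd3g, Cd8b1, Cd2 and Cd5 of 9 CD8 T cell markers were near the floor. A level is called near the floor where it lies in the lowest 25% of its own array. The Y-linked gene Eif2s3y was at 8.24, 3.65 and 4.00 in the 3 Ezh2-deficient MEF arrays and at 8.02 to 8.53 in all other MEF arrays. Xist was at 6.45, 9.56 and 9.52 in the Ezh2-deficient arrays and at 6.19 to 6.39 in all other MEF arrays. Ezh2-deficient arrays 2 and 3 thus differ in sex from all other MEF arrays, and sex is not balanced between the Ezh2-deficient line and the groups it is compared with. The part of sex in the results was not tested beyond the fit with the Eif2s3y level as a covariate.

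Members were more often above the floor in MEFs than in T cells. Of the 82, 55 were above it on all Snf5 Ezh2-deficient arrays, 53 on all Ezh2-deficient arrays and 51 on all wild-type MEF arrays of either set, against 25 on all lymphoma arrays and 17 on all wild-type CD8+ arrays. These are 62.2% to 67.1% of members in the MEF groups (77.2% to 77.6% of all genes), 30.5% in lymphomas (71.5% of all genes) and 20.7% in wild-type CD8+ T cells (67.8% of all genes). All 3 Msx genes and 5 of 6 Irx genes were above the floor on every MEF array, while of the T cell arrays no Dlx, En, Irx, Meox or Zic gene was above it throughout either group. The genes above the floor on all wild-type CD8+ arrays were Lhx3, Lhx6, Msx1, Nkx1-2, Nkx2-3, Nkx2-6, Nkx2-9, Nkx6-1, Nkx6-2, Pax1, Pax9, Sox1, Sox4, Sox9, Sox10, Sox12 and Tbx6. A probe set's intensity depends on its sequence, so levels are not compared between genes, and in these bulk samples fewer cells expressing a gene and less RNA per cell cannot be told apart.

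In Snf5 Ezh2-deficient MEFs, 17 of the 82 members rose (20.7%, where 13.2% of all genes rose) and 1 fell (1.22%, where 14.3% of all genes fell), by limma with Benjamini-Hochberg adjustment over all probe sets at a threshold of 0.05. The members that rose were Tbx2, Tbx4, Tbx6, Tbx18, Pax1, Pax3, Pax9, Irx1, Irx2, Sox12, Sox13, En1, Lhx2, Meox1, Msx1, Nkx2-9 and Six5, and the member that fell was Zic1. The signed median change over the 82 was 0.04 on the log2 scale, against -0.0028 over all genes. The 2 groups did not overlap for 20 members higher and 2 lower, where 20.6% and 22.6% of all genes did so (43.2% in either direction). At an unadjusted p under the threshold 22 members passed, where 38.0% of all genes did.

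**Figure D1:**
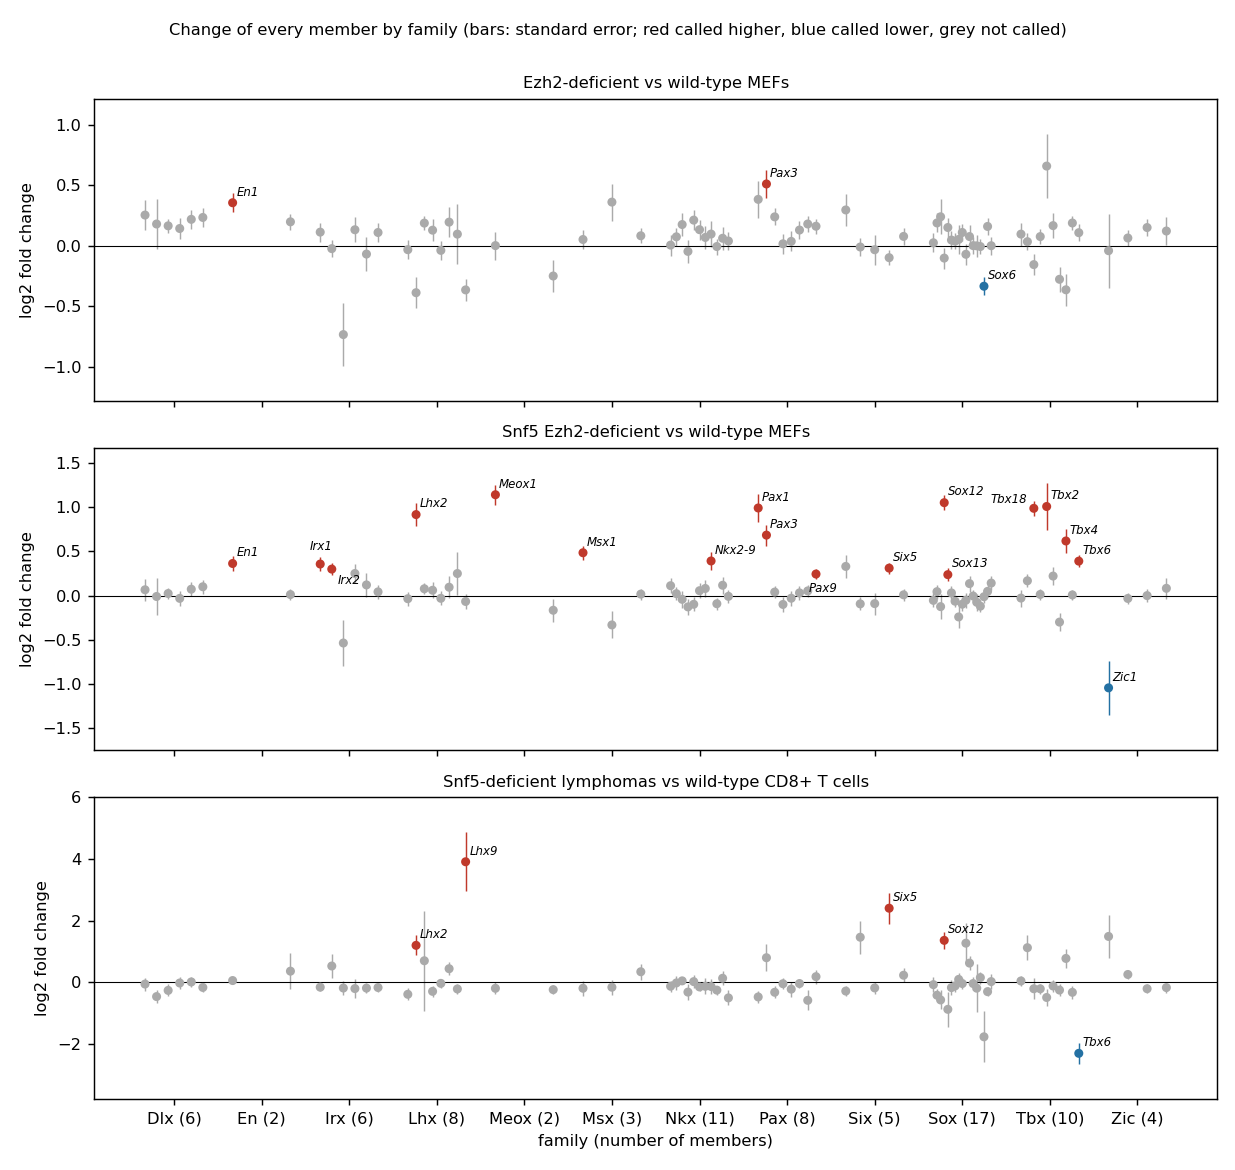
Log2 fold change (y axis) of each of the 82 members, by family (x axis), with its standard error as a bar, in Ezh2-deficient MEFs (top), Snf5 Ezh2-deficient MEFs (middle) and Snf5-deficient lymphomas (bottom), each against its wild-type group. Red points were called higher and blue points lower: 2 and 1 at the top, 17 and 1 in the middle, 4 and 1 at the bottom. The y scales differ between panels.

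Meox1, a homeobox gene of the somite, had log2 intensities of 8.78, 8.66 and 8.59 in Snf5 Ezh2-deficient MEFs, against 7.42, 7.79 and 7.39 in wild-type MEFs. All 3 mutant arrays lay above all 3 wild-type arrays. The change was 1.14 ± 0.12 on the log2 scale (SE, n = 3 each; limma adjusted p = 7.8e-05), the largest of any member here. Its relative Meox2, a regulator of limb muscle, was near the floor on every MEF array and had a change of -0.17 (limma adjusted p = 0.408).

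Among the paired box genes, Pax1, which acts in the sclerotome that forms the vertebrae, was at 6.98, 7.05 and 6.70 in Snf5 Ezh2-deficient MEFs, against 5.68, 5.91 and 6.17 in wild-type MEFs, a change of 0.99 ± 0.15 (SE; limma adjusted p = 0.000976). Pax3, a gene of the dermomyotome and neural crest, was at 7.44, 7.64 and 7.31 against 6.71, 6.86 and 6.76, a change of 0.68 ± 0.12 (limma adjusted p = 0.00194); a second probe set of Pax3 gave 0.59 (limma adjusted p = 0.0117). Both genes were higher on each mutant array than on any wild-type array. Pax9, the sclerotome partner of Pax1, changed by 0.24 (limma adjusted p = 0.0136), with 0.29 at its second probe set (limma adjusted p = 0.0472). Pax4, Pax5, Pax6, Pax7 and Pax8 did not pass, at -0.10 to 0.05, and all but Pax4 of them were near the floor.

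In the T-box family 4 of 10 members rose, beside 3 of 8 Pax, 2 of 6 Irx, 2 of 17 Sox and 1 of 2 En and Meox genes each. In the other families 1 of 3 Msx, 1 of 5 sine oculis, 1 of 8 Lhx, 1 of 11 Nkx, 0 of 6 Dlx and 0 of 4 Zic genes rose. Of all genes 13.2% rose, and counts in families this small were not tested. Tbx18, known in the anterior somite and the epicardium, was at 7.72, 7.84 and 7.66 in Snf5 Ezh2-deficient MEFs, against 6.56, 6.77 and 6.92 in wild-type MEFs, a change of 0.99 ± 0.09 (SE; limma adjusted p = 3.66e-05). Tbx2, a T-box repressor of limb and heart, was at 7.06, 6.77 and 6.65 against 5.69, 5.84 and 5.93, a change of 1.01 ± 0.27 (limma adjusted p = 0.0176). No mutant value of either gene reached down to a wild-type one. Tbx4, which marks the hindlimb and the lung, was at 8.54, 8.35 and 8.37 against 8.04, 7.68 and 7.69 (0.62 ± 0.13; limma adjusted p = 0.00591), and Tbx6, a gene of the presomitic mesoderm, at 5.78, 5.87 and 5.70 against 5.43, 5.53 and 5.23 (0.39 ± 0.07; limma adjusted p = 0.00254). Tbx6 was near the floor on 2 of the 3 wild-type arrays. Tbx2 lost its call without wild-type array 1 (0.94; limma adjusted p = 0.0597) or without Snf5 Ezh2-deficient array 1 (0.89; limma adjusted p = 0.0647). The other T-box genes Tbx1, Tbx3, Tbx5, Tbx15, Tbx19 and Tbx20 lay between -0.30 and 0.22 and did not pass, although a second probe set of the forelimb gene Tbx5 did (0.33; limma adjusted p = 0.0265).

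Of the 17 Sox genes, Sox12 and Sox13 rose. Sox12, which belongs to the SoxC group with Sox4 and Sox11, was at 8.57, 8.94 and 8.78 in Snf5 Ezh2-deficient MEFs, against 7.81, 7.66 and 7.66 in wild-type MEFs. The lowest mutant array stood well above the highest wild-type array, and the change was 1.05 ± 0.09 (SE; limma adjusted p = 2.12e-05), the smallest p of any member here. Its group partners did not pass: Sox11 had -0.12 (limma adjusted p = 0.599), and Sox4 was at 11.3 to 11.5 in mutant and 11.4 to 11.6 in wild-type arrays. Sox13, a SoxD gene, was at 7.02 to 7.18 against 6.83 to 6.91 (0.24; limma adjusted p = 0.0436), and lost its call without any 1 of the 3 wild-type arrays or without Snf5 Ezh2-deficient array 2 or 3, at 0.20 to 0.26 (limma adjusted p = 0.07 to 0.134), and also under quantile normalization, median centring or eBayes with trend and robust (limma adjusted p = 0.0545 to 0.0681). The cartilage regulator Sox9 had 0.14 (limma adjusted p = 0.215), and the 15 Sox genes that did not pass lay between -0.24 and 0.14.

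**Figure D2:**
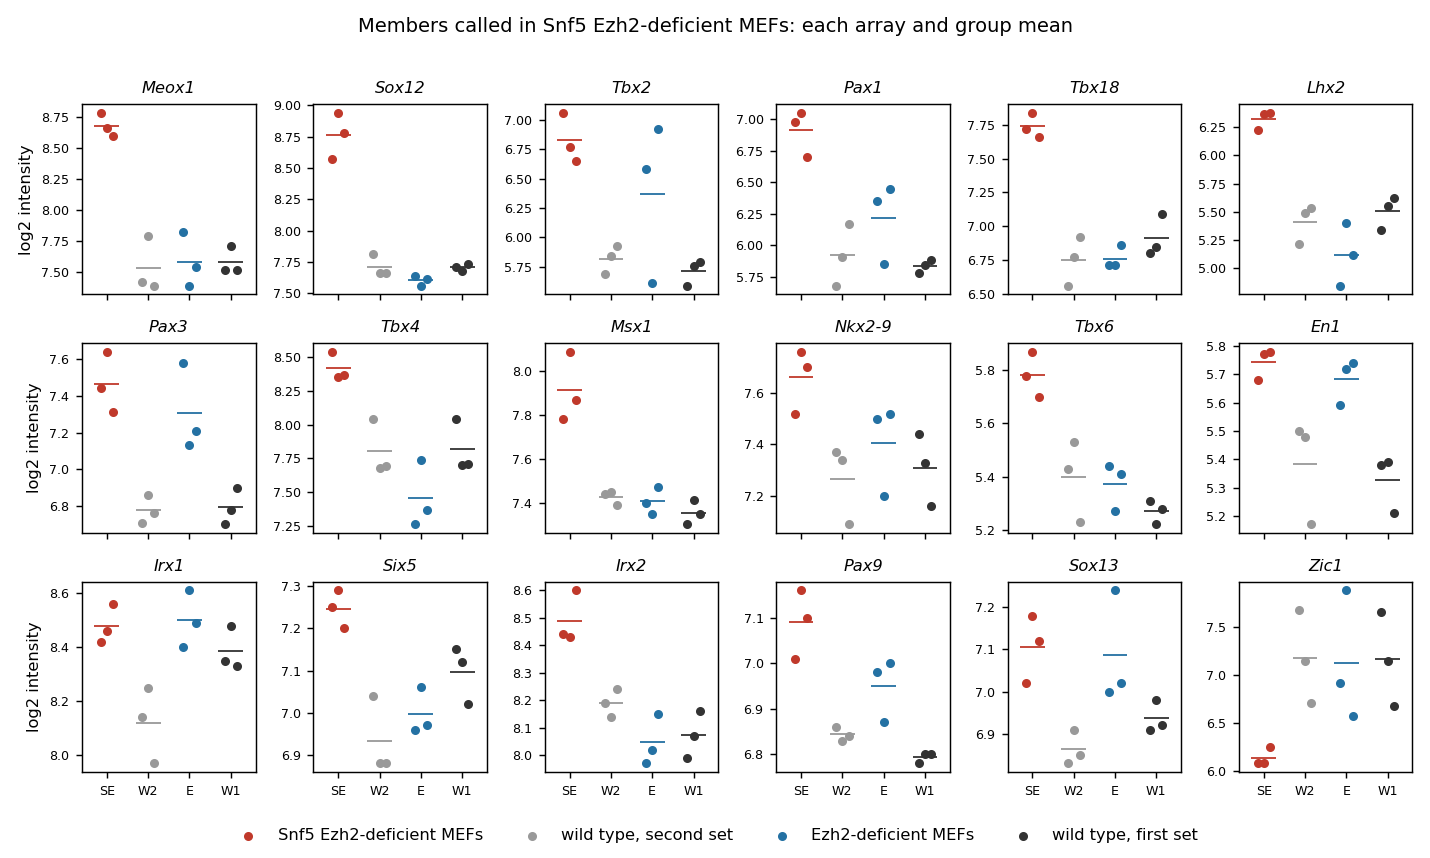
Log2 intensity (y axis, own scale in each panel) of the 18 members called in Snf5 Ezh2-deficient MEFs, on each array (points) with the group mean (line). SE and W2 are Snf5 Ezh2-deficient MEFs and their wild-type set, E and W1 Ezh2-deficient MEFs and theirs; W1 and W2 are the same 3 hybridisations summarised again, and sets are compared only within themselves. In 17 panels all SE points lie above all W2 points, and for Zic1 all lie below.

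The LIM homeobox gene Lhx2, which acts in limb outgrowth, eye and hair follicle, was at 6.23, 6.37 and 6.38 in Snf5 Ezh2-deficient MEFs, against 5.21, 5.49 and 5.53 in wild-type MEFs, a change of 0.92 ± 0.13 (SE; limma adjusted p = 0.000584). It was above the floor on all mutant arrays and near it on 1 wild-type array. The 7 other Lhx genes did not pass, at -0.07 to 0.25. Lhx9, a gene of gonad and limb, was the lowest of these at its brighter probe set (-0.07; limma adjusted p = 0.652), while its second probe set passed as lower (-0.37; limma adjusted p = 0.0332).

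Smaller rises were found in other homeobox families. Msx1, a gene of limb and face mesenchyme, was at 7.78, 8.09 and 7.87 in Snf5 Ezh2-deficient MEFs, against 7.44, 7.45 and 7.39 in wild-type MEFs (0.49 ± 0.08, SE; limma adjusted p = 0.0013), and its second probe set gave 1.07 (limma adjusted p = 0.000389). Its relative Msx2 had -0.33 (limma adjusted p = 0.148). En1, a gene of the midbrain boundary and the ventral limb ectoderm, changed by 0.36 (limma adjusted p = 0.00687), the Iroquois genes Irx1 and Irx2 by 0.36 and 0.30 (limma adjusted p = 0.00658 and 0.0106), and Six5, a homeobox gene next to the myotonic dystrophy kinase gene, by 0.31 (limma adjusted p = 0.00414). Nkx2-9, of the ventral neural tube, changed by 0.39 (limma adjusted p = 0.0196), and its call was lost without wild-type array 3 or Snf5 Ezh2-deficient array 2 or 3, at 0.30 to 0.37 (limma adjusted p = 0.0578 to 0.0862). For each of these 6 genes the 2 groups did not overlap. All 6 Dlx genes, known for jaw and forebrain, stayed between -0.03 and 0.10 and none passed.

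Zic1, a zinc finger gene of the dorsal neural tube and somite, was at 6.08, 6.08 and 6.25 in Snf5 Ezh2-deficient MEFs, against 7.68, 7.15 and 6.71 in wild-type MEFs. The wild-type arrays were spread widely while the mutant arrays lay close together below them, and the change was -1.04 ± 0.31 (SE; limma adjusted p = 0.0295). The call was lost without any 1 of the 3 Snf5 Ezh2-deficient arrays or without wild-type array 1 or 2, at -1.10 to -0.80 (limma adjusted p = 0.0565 to 0.109). It was also lost with log2(value + 32), at -0.80 (limma adjusted p = 0.0609), and with eBayes with trend and robust (limma adjusted p = 0.0783). Its neighbour Zic4 was near the floor and had -0.00023, and Zic2 and Zic5 had -0.03 and 0.08. The member with the largest fall that did not pass was Irx3, at 7.78, 8.88 and 8.09 against 8.76, 8.85 and 8.74 (-0.54; limma adjusted p = 0.166), where Snf5 Ezh2-deficient array 2 lay among the wild-type values; without that array it passed (-0.85; limma adjusted p = 0.0166).

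Several members lie next to each other in the genome, with no protein-coding gene between them. Counting up to 2 protein-coding genes between them, members formed 18 neighbour pairs, and in few did both genes rise in Snf5 Ezh2-deficient MEFs. These were Tbx2 and Tbx4 on chromosome 11, Irx1 and Irx2 on chromosome 13 and Nkx2-9 and Pax9 on chromosome 12. The calls of Tbx2 and Nkx2-9 were lost without single arrays, as above. The matching share over neighbouring pairs of all genes was not computed, so these pairs cannot be read as particular to the members. In other adjacent pairs only 1 gene rose, as Pax1 beside Nkx2-2 on chromosome 2 (0.99 and -0.04) or Irx2 beside Irx4 (0.30 and 0.25, limma adjusted p above the threshold for Irx4). Adjacent Dlx pairs on chromosomes 2, 6 and 11 held no called gene.

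In Ezh2-deficient MEFs only 3 members passed: 2 rose (2.44%, where 1.02% of all genes rose) and 1 fell (1.22%, where 2.47% of all genes fell). Pax3 was at 7.58, 7.13 and 7.21 in Ezh2-deficient MEFs, against 6.70, 6.78 and 6.90 in wild-type MEFs (0.51 ± 0.12, SE; limma adjusted p = 0.0495). En1 was at 5.59, 5.72 and 5.74 against 5.38, 5.39 and 5.21 (0.35 ± 0.08; limma adjusted p = 0.0444), where the wild-type values lay near the floor. Sox6, a SoxD gene of cartilage and red cells, was at 5.85, 5.89 and 5.84 against 6.18, 6.16 and 6.25 (-0.34 ± 0.08; limma adjusted p = 0.0444). Groups did not overlap for any of the 3, but each call was lost on leaving out single arrays: En1 lost its call without each of the 9 arrays in turn (limma adjusted p = 0.0522 to 0.105), Pax3 without 7 of them, all but Ezh2-deficient array 2 and Snf5 Ezh2-deficient array 2 (limma adjusted p = 0.0533 to 0.153), and Sox6 without 7 of them, all but Snf5 Ezh2-deficient arrays 1 and 3 (limma adjusted p = 0.0519 to 0.122). With the Eif2s3y level as a covariate, En1 had a change of 0.27 (limma adjusted p = 0.277) and Sox6 -0.33 (limma adjusted p = 0.195). Eif2s3y was low only on Ezh2-deficient arrays 2 and 3. This fit therefore separates sex from the line largely through Ezh2-deficient array 1, and it cannot settle the part of sex in these calls.

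At an unadjusted p under the threshold 23 members passed in this comparison (25.3% of all genes did), and the groups did not overlap for 19 members higher and 4 lower, where 15.1% and 17.7% of all genes did so (32.7% in either direction). The median over members was 0.08, against 0.004 over all genes. Part of this lean lay at the dim end: of 25 members near the floor on all arrays of both groups, 20 had a positive change, beside 75.4% of all such genes. Of 50 members above the floor on all arrays, 34 had a positive change, beside 43.9% of such genes. The floor itself stood at 5.55 to 5.59 on Ezh2-deficient arrays and 5.50 to 5.52 on wild-type arrays.

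The largest changes that did not pass were uneven among the Ezh2-deficient arrays. Irx3, of heart and limb patterning, was at 8.46, 7.67 and 8.28 in Ezh2-deficient MEFs, against 8.80, 8.92 and 8.90 in wild-type MEFs (-0.73; limma adjusted p = 0.132). Tbx2 was at 6.58, 5.61 and 6.92 against 5.59, 5.76 and 5.79 (0.66; limma adjusted p = 0.172), with Ezh2-deficient array 2 among the wild-type values. Without that array, Tbx2 passed as higher (1.04; limma adjusted p = 0.00793) and Lhx2 as lower (-0.53; limma adjusted p = 0.0379), and the number of members called was 6. Secondary probe sets passed as lower for Lhx9 (-0.49; limma adjusted p = 0.0449) and Meox2 (-0.53; limma adjusted p = 0.0233), whose brighter probe sets did not (-0.37 and -0.25; limma adjusted p = 0.0532 and 0.267).

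**Figure D3:**
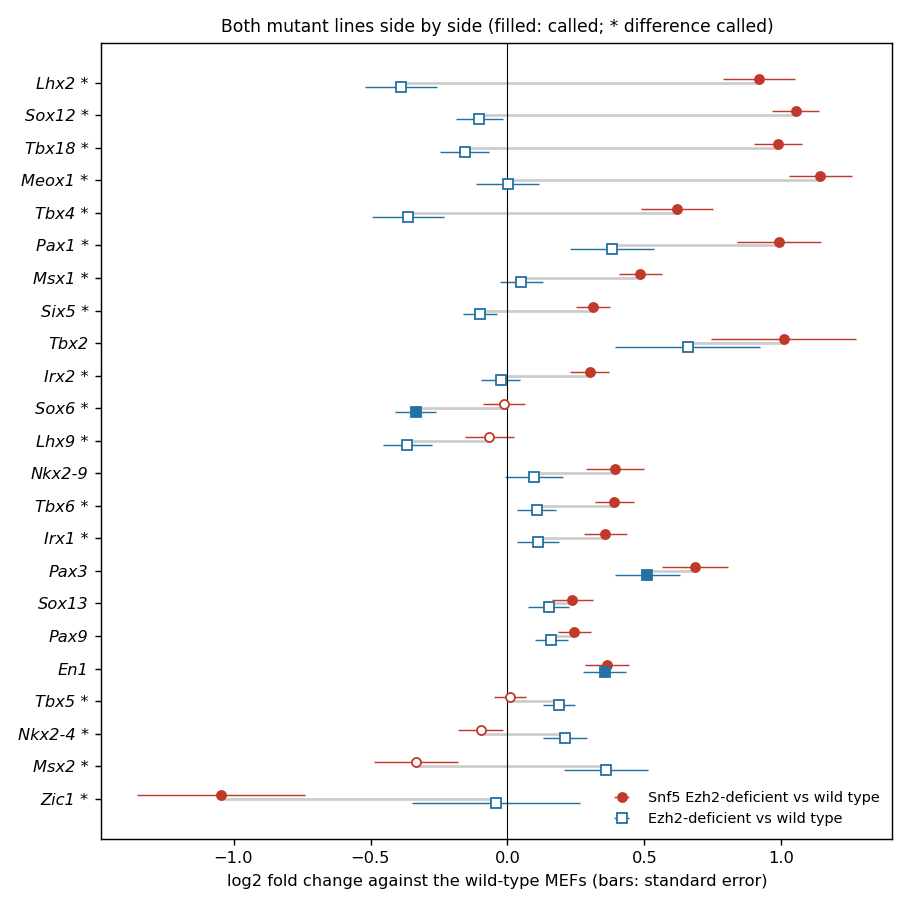
Log2 fold change (x axis, bars are standard errors) of the 23 members called in any MEF comparison, in Snf5 Ezh2-deficient MEFs (red circles) and Ezh2-deficient MEFs (blue squares) against the wild-type MEFs that both share. Filled symbols passed the test and an asterisk marks a called difference between the lines: 13 genes were higher in Snf5 Ezh2-deficient MEFs, led by Lhx2 at 1.31, and 4 lower, led by Zic1.

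Since both mutant lines share their wild-type arrays, they were set against each other directly. The lines differed in Ezh2 itself, which was higher in Snf5 Ezh2-deficient than in Ezh2-deficient MEFs (0.52, limma adjusted p = 0.00812). Of 11 PRC2 genes 5 were higher (45.5%) and 0 lower, where 16.3% and 13.6% of all genes were. The part of these PRC2 differences in the members' differences was not tested. In Snf5 Ezh2-deficient relative to Ezh2-deficient MEFs 13 members were higher (15.9%, where 16.3% of all genes were) and 4 lower (4.88%, where 13.6% of all genes were), or 20.7% of members in either direction beside 29.9% of all genes. The lines did not overlap for 15 members higher and 12 lower, where 22.5% and 21.7% of all genes did so (44.2% in either direction), and 25 members passed at an unadjusted p under the threshold, where 41.8% of all genes did. Of the 17 members that rose against wild type, 11 also passed against the Ezh2-deficient line and 6 did not: En1, Nkx2-9, Pax3, Pax9, Sox13 and Tbx2. For these 6 the difference between the lines was 0.01 ± 0.08 (En1) to 0.35 ± 0.27 (Tbx2, SE), and a p above the threshold does not show that the lines are alike. Both comparisons use the same Snf5 Ezh2-deficient arrays, so some overlap is built in for any gene. The matching share over all genes was not computed, so the 11 of 17 cannot be read as particular to these members.

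Lhx2 had the largest difference, 1.31 ± 0.13 on the log2 scale (SE; limma adjusted p = 7.38e-05), with 0.92 in Snf5 Ezh2-deficient MEFs and -0.39 in Ezh2-deficient MEFs against wild type. Sox12 differed by 1.15 (limma adjusted p = 1.55e-05), Tbx18 by 1.14 (limma adjusted p = 1.76e-05) and Meox1 by 1.14 (limma adjusted p = 7.86e-05), and all 3 had changes of -0.16 to 0.00052 in Ezh2-deficient MEFs. Tbx4 differed by 0.98 (limma adjusted p = 0.000428), having -0.36 in Ezh2-deficient MEFs. The remaining higher members were Pax1 (0.61), Msx1 (0.43), Six5 (0.41), Irx2 (0.32), Sox6 (0.32), Lhx9 (0.30), Tbx6 (0.28) and Irx1 (0.25).

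Zic1 was lower in Snf5 Ezh2-deficient than in Ezh2-deficient MEFs (-1.003 ± 0.31, SE; limma adjusted p = 0.0345). Msx2, at 7.92, 7.59 and 7.75 in Snf5 Ezh2-deficient MEFs against 8.32, 7.77 and 8.16 in their wild-type set, and at 8.72, 8.43 and 8.90 in Ezh2-deficient MEFs against 8.53, 7.99 and 8.45 in theirs, differed by -0.69 (limma adjusted p = 0.00757) although neither line passed against wild type. Nkx2-4, a relative of the thyroid gene Nkx2-1, differed by -0.31 (limma adjusted p = 0.0168). Tbx5 differed by -0.18 (limma adjusted p = 0.0433) at its brighter probe set and by 0.32 (limma adjusted p = 0.031) at its second, so its direction is not settled.

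Single arrays decided several of these differences. Calls were lost without 1 array for Irx1 (6 of 9 arrays: wild-type array 3, Ezh2-deficient arrays 1 and 3 and each Snf5 Ezh2-deficient array; 0.20 to 0.28), Lhx9 (Ezh2-deficient array 1 or 2, Snf5 Ezh2-deficient array 1 or 2; 0.23 to 0.31), Nkx2-4 (Ezh2-deficient array 1 or 3, Snf5 Ezh2-deficient array 3; -0.28 to -0.27), Pax1 (Snf5 Ezh2-deficient array 2; 0.54), Tbx6 (wild-type array 3; 0.20) and Zic1 (Ezh2-deficient array 1 or 2, each Snf5 Ezh2-deficient array; -1.10 to -0.63). Tbx5 lost its call without any 1 array except wild-type array 1. Dlx2 passed as lower without Ezh2-deficient array 2 (-0.48; limma adjusted p = 0.00969). Lhx2, Sox12, Tbx18, Meox1, Tbx4, Msx1, Six5, Irx2, Msx2 and Sox6 kept theirs without each array in turn. Msx2 and Sox6 lost theirs with all 12 arrays as deposited (limma adjusted p = 0.0801 and 0.053) and with the Eif2s3y covariate (limma adjusted p = 0.0598 and 0.0985).

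Genes that work with these families were described by counts. Of 26 cofactor genes measured, 10 rose (38.5%) and 5 fell (19.2%) in Snf5 Ezh2-deficient MEFs, beside the 13.2% and 14.3% of all genes given above, including the TALE homeobox gene Pbx3 (0.83; limma adjusted p = 5.08e-06), the dachshund gene Dach2, a partner of Eya proteins (-1.18; limma adjusted p = 8.99e-06) and the Groucho corepressor gene Tle1 (-0.73; limma adjusted p = 0.000119), and the list's median was 0.15. Of 80 other developmental factors, 10 rose (12.5%, near the share of all genes) and 3 fell (3.75%) with a median of 0.0019. Those that rose included the odd-skipped genes Osr1 (1.01) and Osr2 (0.95) of limb mesenchyme and kidney, and the T-box gene Eomes (0.96). In Ezh2-deficient MEFs Meis2 was the single cofactor that passed (0.59, limma adjusted p = 0.0168) and the tendon gene Scx the single other factor (-0.52, limma adjusted p = 0.0358). Of all genes 1.02% rose and 2.47% fell in that comparison.

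Of 15 cartilage genes known as targets of Sox9, 5 rose (33.3%) and 0 fell in Snf5 Ezh2-deficient MEFs, led by the collagen genes Col2a1 (1.54; limma adjusted p = 0.000695), Col11a1 (1.51; limma adjusted p = 0.000143) and Col10a1 (1.24; limma adjusted p = 0.0171), with a median of 0.07 over the list. Sox9 itself did not pass, as above. In Snf5 Ezh2-deficient MEFs 13.2% of all genes rose and 14.3% fell, beside this count and those below. Among marker lists of other cell types, the mean of 8 cartilage markers was 5.85 to 6.01 in Snf5 Ezh2-deficient MEFs and 5.64 to 5.76 in wild-type MEFs, with Matn1, Hapln1 and Cnmd near the floor in both groups, that of 8 skeletal muscle markers 6.46 to 6.53 in Snf5 Ezh2-deficient and 6.69 to 6.81 in wild-type MEFs, and that of 8 epithelial markers 5.85 to 5.89 in Snf5 Ezh2-deficient and 6.20 to 6.28 in wild-type MEFs. Single genes led these lists: Col2a1 rose by 1.54 where the cartilage list's median change was 0.02, Acta1 had -1.53 where the muscle median was -0.11, and Krt7 and Krt18 had -1.69 and -1.20 where the epithelial median was -0.07. Of 8 neural and Schwann markers 3 rose and 3 fell (37.5% each), among them Nefl (1.31), Map2 (-1.34) and Fabp7 (-1.42), with a median of -0.01. Of 8 endothelial markers only Tek rose (1.46) and only Emcn fell (-0.53), with a median of 0.03. Of 12 fibroblast markers only Pdgfra rose (1.76) and only Fn1 fell (-0.21), with a median of -0.07. The part of these markers in the members' changes was not tested. Of 30 signalling genes of limb and axis, 7 rose (23.3%) and 1 fell (3.33%), with Sfrp2, a secreted Wnt modulator, at 3.6003 (limma adjusted p = 1.91e-05) and Crabp1, a retinoic acid binding protein, at 1.99 (limma adjusted p = 0.000239). In Ezh2-deficient MEFs the limb growth factor Fgf10 fell by 0.90 on the log2 scale (limma adjusted p = 0.0239), the single gene of that list to pass. Among 11 PRC2 genes, 2 rose (18.2%) and 3 fell (27.3%) in Snf5 Ezh2-deficient MEFs. Jarid2 was at 0.47 (limma adjusted p = 0.00557), Mtf2 at -0.28 (limma adjusted p = 0.0094) and the targeted Ezh2 at -1.66.

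The wild-type CD8+ T cell arrays were not alike. On arrays 1 and 6 the CD8 gene Cd8a was at 10.7 and 10.6, against 13.3 to 13.6 on the other 4, and the mean of 9 B cell markers was 10.89 and 10.98 and that of 11 myeloid markers 12.41 and 12.35, against 7.24 to 8.35 and 6.66 to 8.37. Wild-type arrays 3 and 4 had the lowest Mki67, a proliferation gene (9.32 and 9.56, against 12.6 to 13.7), and arrays 2 and 5 the highest mean of 4 erythroid markers (9.28 and 9.67). Cd4 was at 9.12, 9.63, 6.58, 6.25, 11.11 and 8.99 on wild-type arrays 1 to 6 and at 5.92 to 6.73 in lymphomas. In lymphomas the CD8 T cell list was at 11.4 to 12.6, the B cell list at 6.62 to 7.09 and the myeloid list at 8.45 to 10.6, of whose markers Itgam was near the floor throughout. Results are therefore also given without each of these pairs of wild-type arrays. Eif2s3y was at 3.45, 11.81, 11.93, 12.55 and 3.32 in lymphomas 1 to 5 and at 3.20, 3.46, 9.84, 6.11, 3.91 and 3.22 on wild-type arrays 1 to 6. Xist was at 13.19, 5.44, 5.15, 4.85 and 12.25 in the lymphomas and at 12.85 to 13.51 on all wild-type arrays. Sex thus differs among the lymphomas. Lymphomas 2, 3 and 4 had high Eif2s3y with low Xist, which no wild-type array had. Wild-type arrays 3 and 4 carried Eif2s3y beside high Xist. Sex is therefore not balanced between the 2 groups, and its part was not tested beyond the fit with the Eif2s3y level as a covariate.

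**Figure D4:**
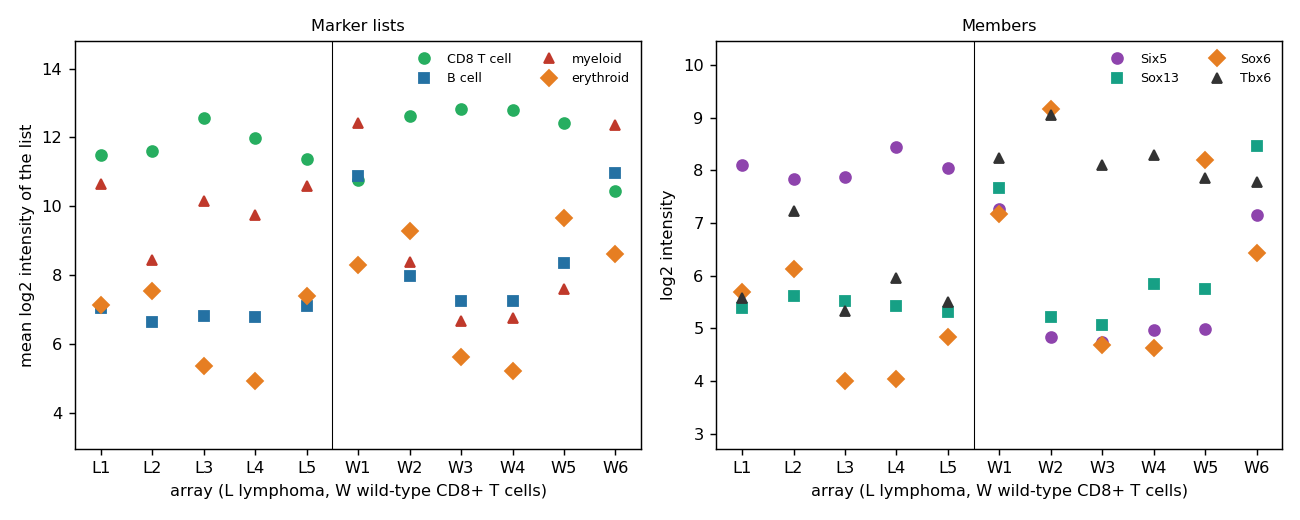
Left, mean log2 intensity (y axis) of 4 marker lists on each of the 5 lymphoma arrays (L1 to L5) and 6 wild-type CD8+ arrays (W1 to W6). Right, log2 intensity of Six5, Sox13, Sox6 and Tbx6 on the same arrays. W1 and W6 carry the highest B cell and myeloid levels and also the highest wild-type levels of Six5 and Sox13; W2 and W5 carry the highest erythroid and Sox6 levels.

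In Snf5-deficient lymphomas 4 members rose (4.88%, where 9.13% of all genes rose) and 1 fell (1.22%, where 7.71% of all genes fell). Lhx9, Six5, Sox12 and Lhx2 were higher and Tbx6 was lower than in wild-type CD8+ T cells, by limma with Benjamini-Hochberg adjustment over all probe sets. The median over the 82 members was -0.14 on the log2 scale, against -0.07 over all genes. Groups did not overlap for 3 members higher and 1 lower, where 7.09% and 5.70% of all genes did so (12.8% in either direction), and 11 passed at an unadjusted p under the threshold, where 31.8% of all genes did. Without wild-type arrays 1 and 6 the number called was 11, without arrays 3 and 4 it was 6, and without arrays 2 and 5 it was 3 (Six5, Sox12 and Tbx6).

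Lhx9 was at 6.06, 9.48, 12.1, 8.82 and 6.19 in the 5 lymphomas, with a median of 4.51 (3.94 to 5.97) in wild-type CD8+ T cells, where 5 of 6 arrays were near the floor. Every lymphoma lay above every wild-type array, lymphomas 1 and 5 by little and lymphoma 3 by the most. The 3 lymphomas with high Lhx9 (2, 3 and 4) are those with high Eif2s3y and low Xist. The change was 3.91 ± 0.96 on the log2 scale (SE, n = 5 and 6; limma adjusted p = 0.0197), and limma adjusted p was 0.0437 without wild-type arrays 1 and 6, 0.0389 without arrays 3 and 4 and 0.079 without arrays 2 and 5. With the Eif2s3y level as a covariate the change was 2.63 ± 0.77 (limma adjusted p = 0.0486). Its second probe set had 1.29 (limma adjusted p = 0.191).

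Six5 was at 8.11, 7.84, 7.87, 8.44 and 8.05 in lymphomas, with a median of 4.98 (4.74 to 7.27) in wild-type CD8+ T cells. The lymphoma values were close to each other and above all wild-type values. Wild-type arrays 1 and 6, at 7.27 and 7.15, stood far above the other 4, at 4.74 to 4.99, which were near the floor. The change was 2.40 ± 0.50 (SE, limma adjusted p = 0.00959) with all arrays and 3.18 ± 0.15 (limma adjusted p = 3.96e-06) without wild-type arrays 1 and 6. Leaving them out did not balance the marker levels. The myeloid mean was 8.45 to 10.6 in lymphomas and 6.66 to 8.37 on the other 4 wild-type arrays. The B cell mean was 6.62 to 7.09 and 7.24 to 8.35. The part of the B cell and myeloid marker levels of any of these arrays was not tested.

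Sox12 was at 8.25, 8.27, 7.40, 7.90 and 8.26 in lymphomas, with a median of 6.64 (5.96 to 7.29) in wild-type CD8+ T cells. Lymphoma 3 lay just above the highest wild-type array. The change was 1.36 ± 0.27 (SE; limma adjusted p = 0.00667), and it was 1.23 without wild-type arrays 1 and 6 (limma adjusted p = 0.011), 1.21 without the pair 3 and 4 (limma adjusted p = 0.0308) and 1.63 without the pair 2 and 5 (limma adjusted p = 0.00517). Sox12 was above the floor on every T cell and every MEF array.

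Lhx2 was at 5.22, 6.45, 5.39, 5.88 and 5.82 in lymphomas, with a median of 4.40 (3.79 to 5.53) in wild-type CD8+ T cells, and the groups overlapped through wild-type array 6. It was near the floor on 5 of the 6 wild-type arrays and on no lymphoma array. The change was 1.20 ± 0.32 (SE; limma adjusted p = 0.0304), but the call was lost without lymphoma 2, 4 or 5 or without wild-type array 2, 3, 4 or 5, at 1.02 to 1.18 (limma adjusted p = 0.0547 to 0.0709). It was also lost without wild-type arrays 3 and 4 (1.06; limma adjusted p = 0.0978), without arrays 2 and 5 (0.95; limma adjusted p = 0.114) and with the Eif2s3y covariate (1.15; limma adjusted p = 0.0781). Without wild-type arrays 1 and 6 the change was 1.57 (limma adjusted p = 0.00257).

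Tbx6 was at 5.57, 7.23, 5.32, 5.95 and 5.49 in lymphomas, with a median of 8.18 (7.78 to 9.05) in wild-type CD8+ T cells. Lymphoma 2 was nearest to the wild-type range without reaching it. The change was -2.31 ± 0.35 (SE; limma adjusted p = 0.00161), and -2.42 to -2.20 without the pairs of wild-type arrays named above. Tbx6 was the T-box gene above the floor on all wild-type CD8+ arrays, among 10.

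**Figure D5:**
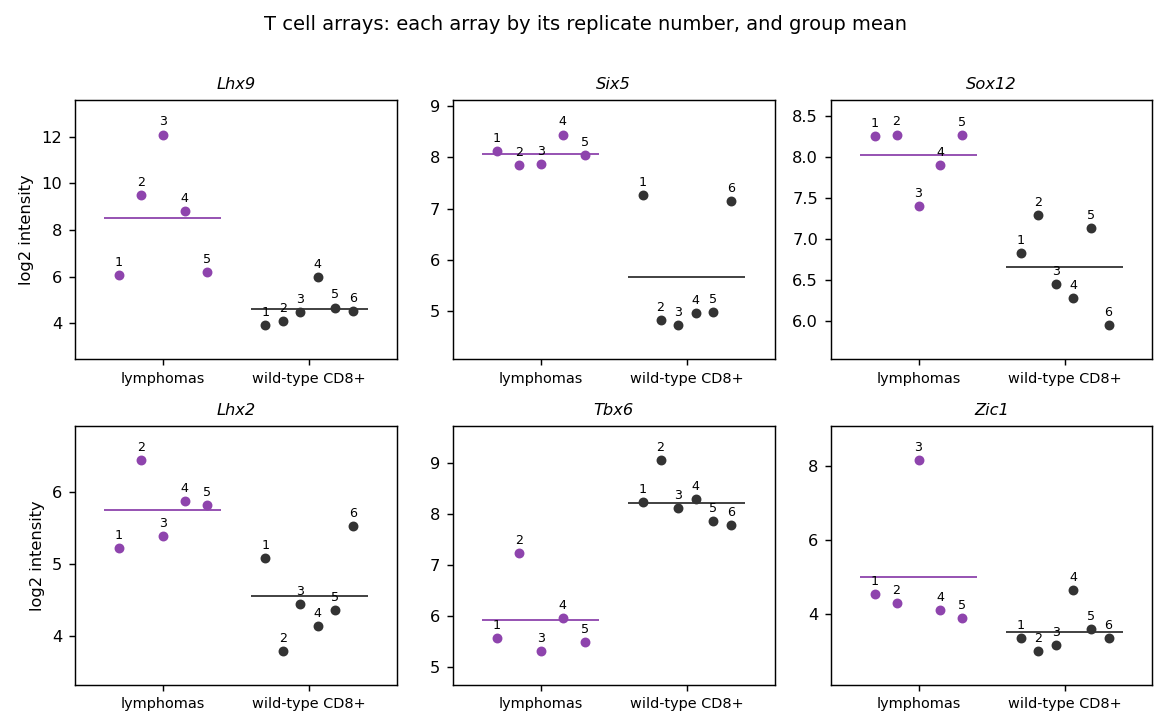
Log2 intensity (y axis, own scale in each panel) of the 5 called members and of Zic1 in lymphomas (left) and wild-type CD8+ T cells (right); each point is an array with its replicate number, and lines are group means. Among the genes shown, Lhx9 varied most between lymphomas, from 6.06 to 12.1, and Zic1 was high on lymphoma 3 alone, at 8.16.

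Other members differed between single tumours or single wild-type arrays without passing. Zic1 was at 8.16 in lymphoma 3 and at 3.87 to 4.53 in the other 4, with a median of 3.35 in wild-type CD8+ T cells, near the floor on all 6 arrays (1.48; limma adjusted p = 0.179). Sox6 was at 4.00 to 6.13 in lymphomas and at 7.18, 9.16, 4.68, 4.63, 8.19 and 6.43 in wild-type arrays 1 to 6, highest where erythroid markers were highest (-1.78; limma adjusted p = 0.176). Lymphomas 3 and 4 had the lowest lymphoma values of both Sox6 (4.00 and 4.03) and the erythroid list (5.36 and 4.92), as wild-type arrays 3 and 4 had among wild-type arrays (5.62 and 5.21 for the list). Sox6 passed as lower without wild-type arrays 3 and 4 (-2.80, limma adjusted p = 0.0216). The part of the erythroid marker levels in these Sox6 values was not tested. Sox13, at 5.31 to 5.61 in lymphomas, was at 7.67 and 8.46 on wild-type arrays 1 and 6 and at 5.06 to 5.85 on the others. Six3, a forebrain and eye gene, had 1.46 (limma adjusted p = 0.0914) with all arrays and passed at 2.07 (limma adjusted p = 0.0101) without wild-type arrays 1 and 6, when Lhx4, Nkx2-3, Pax1, Sox10 and Tbx5 also passed as lower, at -0.65 to -0.49.

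By family, the members that did not pass in lymphomas lay between -0.47 and 0.01 for the 6 Dlx genes, -0.21 and 0.52 for the 6 Irx genes, -0.51 and 0.13 for the 11 Nkx genes and -0.59 and 0.79 for the 8 Pax genes. Tbx15, a gene of skin and limb mesenchyme, was the T-box gene with the largest rise that did not pass (1.12; limma adjusted p = 0.0897). Among the other lists, Eomes, a T-box factor of effector CD8 T cells outside the symbol rule, fell by 4.41 on the log2 scale (limma adjusted p = 0.00234). Foxf2 (3.30, limma adjusted p = 0.019) and Sall4 (2.20, limma adjusted p = 0.0157) rose. In all, 3 of 80 other developmental factors rose (3.75%) and 1 fell (1.25%), where 9.13% and 7.71% of all genes did. Of 26 cofactors, 4 rose and 4 fell (15.4% each). Among them were Pbx3 at 2.72 (limma adjusted p = 0.00908), Dach2 at 2.24 (limma adjusted p = 0.026) and the coactivator gene Eya2 at -2.39 (limma adjusted p = 0.0395). Of 30 limb and axis signalling genes, the Hedgehog receptor gene Ptch1 alone passed (3.33% of the list, at 1.09, limma adjusted p = 0.00104). Of 15 Sox9 targets Col11a2 alone passed (6.67% of the list, at -1.07, limma adjusted p = 0.0281).

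Between cell types, which share no arrays, Sox12, Six5 and Lhx2 rose in both Snf5 Ezh2-deficient MEFs and lymphomas: 17.6% of the 17 members that rose in the MEFs and 75% of the 4 that rose in the lymphomas. Over all genes 217 rose in both, or 13.3% of the 1632 that rose in the MEFs and 19.2% of the 1132 that rose in the lymphomas. The lymphoma call of Lhx2 is the one that was lost without 7 of 11 single arrays. Six5 changed by 0.31 in the MEFs and 2.40 in the lymphomas, Sox12 by 1.05 and 1.36, and Lhx2 by 0.92 and 1.20. Tbx6 was called in both and in opposite directions, 0.39 in the MEFs and -2.31 in the lymphomas. Lhx9, which rose in the lymphomas, did not pass in Snf5 Ezh2-deficient against wild-type MEFs and was above the floor on all MEF arrays, at 8.56 to 8.73 in Snf5 Ezh2-deficient and 8.55 to 8.80 in wild-type MEFs. In all, 23 of the 82 members were called in at least 1 of the 4 comparisons and 59 in none.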

How the data were processed

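RNA of 23 samples was hybridised to Affymetrix mouse expression arrays and summarised by Robust Multichip Average (RMA), per the labels' protocols; no source used here gives the software version. Deposited values are intensities on a linear scale, and their log2 was taken. The second wild-type MEF set repeats the hybridisations of the first (over 5732 bright probe sets, SD of the difference 0.022 to 0.024 for the same replicate number and 0.13 to 0.15 for others), so the second set was shifted per probe set by the controls' offset and the controls averaged, which keeps each line's own fold change. Offsets of members reached 0.53. The matching of replicate numbers was checked (closing section) and gave no pairing. The MEF fit used 9 arrays and the T cell fit 11, with limma 3.58.1 in R 4.3.3 (lmFit, eBayes) and Benjamini-Hochberg adjustment over 22626 probe sets, 64 control probe sets left out. Of these, 20380 name 1 gene by the platform annotation, 691 several and 1555 none. The members have 124 probe sets, 29 members having more than 1. The number of arrays limits the precision: the median standard error was 0.077 in MEFs and 0.24 in T cells. Labels call the replicates biological without naming animals or cultures, so p-values measure the spread between these samples.

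The members and gene lists were chosen with earlier results of these data known. Members named with values are those called in any comparison and, per family, the member with the largest change. Of other lists, genes were drawn from the 3 called genes with the largest change, and Ezh2 and Smarcb1 were added. Members outside this rule were named after their values were seen: Irx4, Lhx3, Lhx4, Nkx2-2, Nkx2-3, Six3, Sox4, Sox9, Sox10, Sox11, Tbx15, Zic2 and Zic5. So were some rule members in comparisons where they were neither called nor the largest of their family. Members listed by range or by floor were named by symbol, and some marker genes were named likewise after their values were seen. Alternatives tried were other array sets, the replicate number as a block, the Eif2s3y level as a covariate, log2(value + 32), quantile normalization, median centring, a filter on dim probe sets, all probe sets of a gene, other eBayes settings, array weights and leaving out each array. Leaving out pairs of wild-type CD8+ arrays, and the Eif2s3y covariate in T cells, were chosen after seeing the data. Sequences, gene order and promoters come from RefSeq (GRCm38.p6). The fit was tested on simulated data.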

Additional observations from a re-analysis of the deposited data

Results flagged for a closer look

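Among 66 sets of T cell values (33 named members in 2 groups), 7 held an array far from the rest of its group by the critical value of Dixon's ratio. By its definition chance passes this value in about 1 in 20 groups not chosen by their values. Some of these members were named for their change on these same arrays, so the 7 cannot be set against that rate. The 7 were Zic1 in lymphoma 3 (log2 intensity 8.16) and Dlx2 in lymphoma 5 (4.34), and, in wild-type CD8+ T cells, Lhx9 (5.97), Meox2 (3.96) and Zic1 (4.63) on array 4 and Irx2 (4.59) and Tbx18 (5.40) on array 5. Dlx2 was near the floor on all 5 lymphoma arrays, and in wild-type CD8+ T cells Irx2, Meox2 and Zic1 were on all 6 arrays and Lhx9 and Tbx18 on 5, where small changes are not measured.

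The effects of the 2 MEF lines differed, by the test of the difference itself, for 17 members. The log2 difference, Snf5 Ezh2-deficient minus Ezh2-deficient, was 1.31 for Lhx2, 1.15 for Sox12, 1.14 for Tbx18, 1.14 for Meox1, 0.98 for Tbx4, 0.61 for Pax1, 0.43 for Msx1, 0.41 for Six5, 0.32 for Irx2, 0.32 for Sox6, 0.30 for Lhx9, 0.28 for Tbx6 and 0.25 for Irx1, and it was -1.003 for Zic1, -0.69 for Msx2, -0.31 for Nkx2-4 and -0.18 for Tbx5. Snf5 loss alone was not analysed in MEFs, so the parts of Snf5 loss and of the joint loss cannot be told apart.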

How the results depend on the processing

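The number of members called in Snf5 Ezh2-deficient against wild-type MEFs was 15 to 19 under every alternative, beside 18. In Ezh2-deficient MEFs the 3 calls became 1 with each MEF set fitted alone, 1 with the Eif2s3y level as a covariate, 1 with log2(value + 32), 1 with quantile normalization and 0 with the replicate number as a block, and ranged from 0 to 6 when 1 array was left out. Between the mutant lines, the 17 calls became 8 with all 12 arrays as deposited and 9 with the Eif2s3y covariate, and ranged from 12 to 18 when 1 array was left out. In lymphomas, the 5 calls ranged from 4 to 7 when 1 array was left out, became 4 with the Eif2s3y covariate, and became 11 without wild-type CD8+ arrays 1 and 6 and 3 without arrays 2 and 5. Between the lines, Irx1, Msx2, Nkx2-4, Pax1, Sox6, Tbx5, Tbx6 and Zic1 lost the call both with all 12 arrays as deposited and with the Eif2s3y covariate, and Lhx9 with all 12 arrays. The causes were not tested. The Tbx5 difference between the lines reversed to 0.069 with the mean of all probe sets of a gene. Irx3 passed in Snf5 Ezh2-deficient MEFs without Snf5 Ezh2-deficient array 2 (limma adjusted p = 0.0166). Over all named members, 1156 alternative values kept direction and side of the threshold, 119 lost the call and 7 gained it. Same-numbered arrays correlated at -0.22 to 0.15 in their deviations from the group means between MEF groups. Between lymphomas and wild-type CD8+ arrays the 5 same-numbered correlations were all positive, at 0.08 to 0.31, but one was under 0.1 and lymphomas 3 and 5 correlated better with another number (0.12 and 0.18), so the numbers were not taken to pair the samples; with the replicate block the calls were 19 in Snf5 Ezh2-deficient against wild-type MEFs, 16 between the lines and 5 in lymphomas. Members near the floor have only a bounded level, and small changes there are not measured.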
